A study of Homo sapiens with 8 samples.

Results

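H3K27ac, an acetylation of histone H3 found at active promoters and enhancers, was described at 10 genes of the AP-1 and BATF families: FOS, FOSB, FOSL1, FOSL2, JUN, JUNB, JUND, ATF3, BATF2 and BATF3. A peak belonged to a gene when the deposited table named that gene's transcription start inside it or as the nearest start within 50 kb, or when it overlapped the gene on GRCh38. This rule used no measured value, though the 10 genes were chosen with earlier results of these data known. It took 25 of the 31961 peaks, and each of the 10 genes had at least 1. CFPAC1, an established line of human pancreatic ductal adenocarcinoma, supplied the clonal cells, and the mark was mapped by ChIP-seq (chromatin immunoprecipitation, then sequencing of the DNA recovered) with the antibody ab4729 of Abcam. IRF1-guide clones 11 and 13 carried the lentiCRISPRv2 plasmid with wild-type Cas9 and a guide RNA that targets IRF1, the gene of a transcription factor in interferon signalling. Control clones 1 and 4 carried the plasmid with no guide named. Every clone was profiled after treatment for 2 hours with hIFNb (taken to be human interferon beta) and without treatment, which the labels mark as UT. The 4 groups thus held 2 libraries each: IRF1-guide clones with hIFNb, IRF1-guide clones UT, control clones with hIFNb and control clones UT.

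Each clone was isolated by dilution of infected cells, so that the 2 clones of a genotype stand for that genotype and a difference between genotypes cannot be told apart from a difference between clones. The labels say what the guide targets and not whether the IRF1 protein is lost, and H3K27ac at IRF1 does not measure it. The peak at the start of IRF1 had scores of 2265 and 2033 in IRF1-guide clones with hIFNb and 1332 and 1187 in the same clones UT, against 3003 and 2159 in control clones with hIFNb and 2014 and 1306 in control clones UT. A score is the deposited normalised count of a peak in a library, rounded by the authors to whole numbers, and scores summed to between 3277561 and 3460390 per library. Peaks held the start of 8 of 11 epithelial and ductal marker genes, among them EPCAM, KRT19 and SOX9, with summed levels of 41.0 to 49.6 score per kb over the libraries. No peak held the start of PTPRC, CD3E or INS, and the 4 of 12 markers of other cell types with such a peak (ACTA2, CD68, COL1A1 and PECAM1) summed to 14.6 to 17.2 score per kb in IRF1-guide clones with hIFNb, 13.7 to 14.4 in IRF1-guide clones UT, 12.7 to 14.3 in control clones with hIFNb and 11.9 to 12.1 in control clones UT. The part of these levels in the results was not tested. Fewer cells carrying the mark and less mark per cell cannot be told apart in these bulk libraries.

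AP-1 is a family of dimeric transcription factors with a basic region that grips DNA and a leucine zipper that joins the partners. FOS proteins pair with JUN proteins, JUN proteins also pair with each other, and the dimers bind the letters TGANTCA. Growth factors, stress and cytokines act on them through the mitogen-activated protein kinases (MAPK), which raise transcription of the genes and phosphorylate the proteins. ATF3 is a stress-induced relative, and BATF proteins are partners of JUN that lack a separate activation domain and can bind next to interferon regulatory factors. BATF2 is known as an interferon-induced gene, and in mouse macrophages its protein works with IRF1.

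Promoter sequences of 4 members are shown in the 300-base windows of RefSeq on GRCh38.p14, from 250 bases before to 50 bases after an annotated start, read along transcription. Of the 10 genes 8 had an entry, in 9 windows, and FOSL1 and BATF3 had none. BATF2 (chr11:64990228-64990527, minus strand) is shown because its window lies in the peak inside the gene that lost H3K27ac with hIFNb. It is not the start at 64996971 that the deposited table names in the BATF2 promoter peak, and no window covered that one. ATF3 (chr1:212565157-212565456, plus strand) is the window inside the promoter peak described below. JUND (chr19:18281573-18281872, minus strand) and FOSL2 (chr2:28392608-28392907, plus strand) hold the members' matches to a CRE and to an AP-1 site. Capitals mark the motif found.
BATF2: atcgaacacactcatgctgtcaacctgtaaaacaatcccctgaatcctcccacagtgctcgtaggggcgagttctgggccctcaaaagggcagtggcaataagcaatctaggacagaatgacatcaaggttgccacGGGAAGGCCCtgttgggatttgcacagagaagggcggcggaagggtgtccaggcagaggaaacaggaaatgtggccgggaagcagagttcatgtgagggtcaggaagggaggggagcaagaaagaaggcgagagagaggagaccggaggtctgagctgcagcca
ATF3: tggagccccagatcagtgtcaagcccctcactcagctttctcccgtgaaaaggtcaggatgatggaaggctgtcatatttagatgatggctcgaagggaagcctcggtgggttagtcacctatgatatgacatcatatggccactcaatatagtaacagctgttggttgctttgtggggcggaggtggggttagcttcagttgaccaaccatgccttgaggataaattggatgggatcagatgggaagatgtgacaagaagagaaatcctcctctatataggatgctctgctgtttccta
JUND: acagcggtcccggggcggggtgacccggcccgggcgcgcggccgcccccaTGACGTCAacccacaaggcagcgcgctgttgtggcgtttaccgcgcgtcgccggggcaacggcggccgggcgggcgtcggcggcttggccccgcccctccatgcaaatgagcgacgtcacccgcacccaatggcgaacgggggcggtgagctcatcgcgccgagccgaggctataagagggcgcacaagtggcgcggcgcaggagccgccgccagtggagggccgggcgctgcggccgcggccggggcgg
FOSL2: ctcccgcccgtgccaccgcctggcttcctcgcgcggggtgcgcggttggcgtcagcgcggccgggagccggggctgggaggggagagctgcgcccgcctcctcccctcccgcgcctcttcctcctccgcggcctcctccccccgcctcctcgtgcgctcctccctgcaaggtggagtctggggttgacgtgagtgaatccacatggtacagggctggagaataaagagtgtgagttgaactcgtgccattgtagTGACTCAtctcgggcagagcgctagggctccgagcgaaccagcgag
Exact letters were searched on both strands. The AP-1 site TGANTCA lay in 7.71% of all 35116 promoter windows and, among the members, 5 bases after the start of FOSL2. The CRE TGACGTCA, bound by ATF and CREB dimers, lay in 1.85% of all windows and 200 bases before the start of JUND. The kappa-B motif (GGGA, any 4 bases, CC), bound by NF-kappa-B, lay in 25.6% of all windows, 114 bases before this start of BATF2 and 45 bases before that of FOSB. The motifs of interferon signalling, which are the ISRE core (GAAA, any 2 bases, GAAA, 3.57% of all windows) and the GAS element TTCNNNGAA (7.66%), had no match in the 9 windows of the members, nor had the CArG box bound by serum response factor (1.29%). A match is a stretch of letters and does not show binding. Nothing was searched at the BATF2 start in the promoter peak that rose.

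Without regard to treatment, the promoter peaks differed widely in level. The order of the mean score per kb of peak over the 8 libraries was FOSL1 (55.86), BATF2 (29.38), JUN (28.20), JUNB (22.50), FOS (15.93), JUND (15.25), FOSL2 (14.20) and ATF3 (12.50). The order of the means differed between treatments. Of BATF2, JUN, FOS and ATF3, only the BATF2 promoter passed the test of the hIFNb response over all clones described below. With hIFNb BATF2 (36.4) lay above JUN (28.4), while UT it lay below (22.4 and 28.0), and FOS was the lowest of the 8 with hIFNb (14.1) and the fifth UT (17.7), where ATF3 was lowest (10.2). The median over the 8 libraries was 13.73 over all peaks and 17.57 over peaks naming a start. FOSL1, a FOS protein gene often active in carcinoma, stood above the others with 46.90 to 69.84 score per kb over the libraries, and no library of another member reached that range. Its peak (chr11:65885175-65923060) is a wide one that also overlaps C11orf68, CCDC85B, DRAP1 and FIBP, so that the level is not that of FOSL1 alone. The peaks of BATF2, JUNB and JUND also overlap ARL2, HOOK2 and IQCN in that order. Widths of these promoter peaks ran from 3.1 kb at FOS to 37.9 kb at FOSL1, so that the order is one of whole peaks and not of the promoters alone. BATF2 at 19.69 to 40.03, JUN at 22.46 to 31.75 and JUNB at 15.00 to 31.33 overlapped each other, as did FOS at 10.13 to 22.88, JUND at 12.79 to 18.52, FOSL2 at 12.37 to 15.21 and ATF3 at 8.60 to 24.36. FOSB and BATF3 had no peak on the gene, and their peaks lay 9.1 to 20.4 kb from the start.

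With hIFNb over all 4 clones, H3K27ac rose at the BATF2 promoter, at a peak upstream of BATF3 and at 2 peaks inside ATF3, and fell at a peak inside BATF2. These were 4 rises and 1 fall among 25 member peaks, and 20 did not pass the test, against 6.55% of all 31961 peaks rising and 2.58% falling. Because the genes were chosen with earlier results of these data known, these counts describe the members and do not test the family. The calls lay at the loci of BATF2, BATF3 and ATF3 only. The test was limma on log2(score + 1) with Benjamini-Hochberg adjustment over all peaks, a fit called the group-means model below, and a change passed at an adjusted p under 0.05. The median log2 change was 0.05 over the members and 0.00 over all peaks. With the clone as a block, so that hIFNb and UT are compared within each clone, 7 member peaks rose and 2 fell, against 16.6% of all peaks rising and 15.9% falling. In that fit 36.0% of the member peaks and 32.4% of all peaks were called, so the members' share lies near that of all peaks. The known interferon targets ISG15, a ubiquitin-like modifier gene, and IRF9 rose in limma by a log2 change of 1.13 ± 0.14 and 1.34 ± 0.16 (SE, adjusted p = 0.000956 and 0.000695), while GAPDH and ACTB changed by 0.07 ± 0.12 and 0.15 ± 0.19 without passing.

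**Figure D1:**
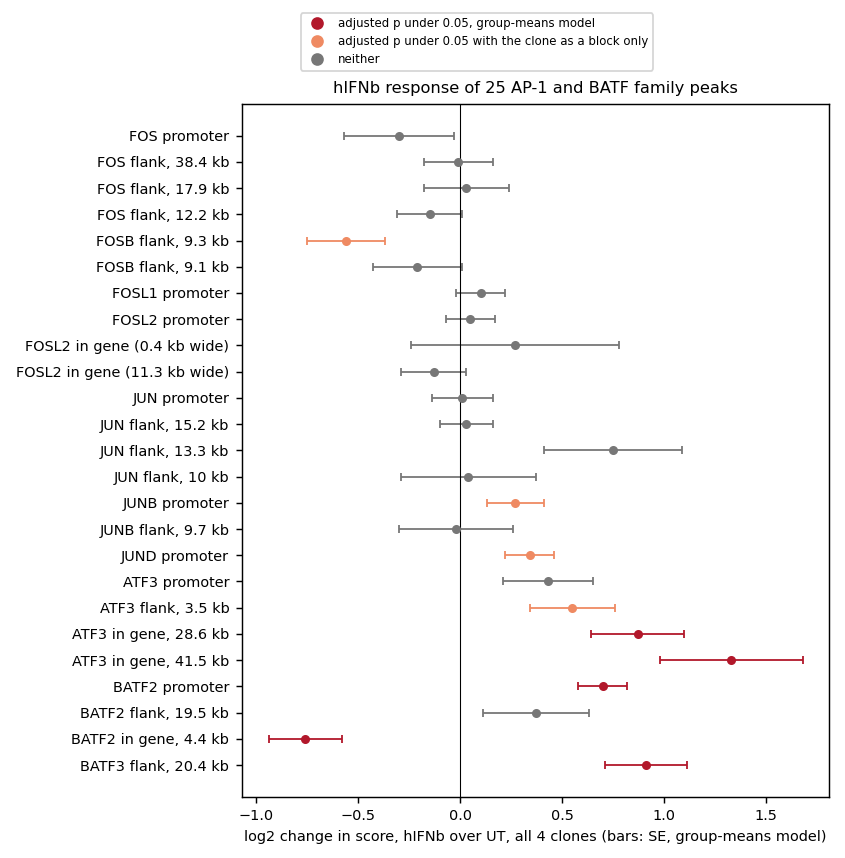
Log2 change in score, hIFNb over UT, over all 4 clones for each of the 25 member peaks, with bars of 1 SE from the group-means model of limma and colours for the fit in which a peak passed. The 4 rises and 1 fall of the group-means model lie at BATF2, BATF3 and ATF3, while the peaks of FOS, FOSL1, FOSL2 and JUN are grey.

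BATF2, which encodes a bZIP protein also described as a suppressor of AP-1, gained H3K27ac at its promoter in all 4 clones. The promoter peak (chr11:64993726-65015558, also overlapping ARL2) had scores of 874 and 745 in IRF1-guide clones 11 and 13 with hIFNb, against 493 and 480 UT, and of 821 and 737 in control clones 1 and 4 with hIFNb, against 552 and 430 UT. Every library with hIFNb lay above every UT library. The rise was 1.63-fold over all clones (log2 0.70 ± 0.12, SE, limma, adjusted p = 0.00561), and it passed without any 1 of the 8 libraries (0.00829 to 0.0316 after adjustment). The log2 change was 0.73 ± 0.17 in IRF1-guide clones (limma, adjusted p = 0.0809, not passing, and 1.18e-06 with the clone as a block) and 0.67 ± 0.17 in control clones (adjusted p = 0.0497). The difference between these responses was 0.06 ± 0.24 (unadjusted p = 0.822, limma). The call in control clones alone was lost in 13 of 16 alternatives, among them leaving out any 1 of the 8 libraries (adjusted p = 0.063 to 0.277), and its p with the clone as a block was 2.36e-06 after adjustment.

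Inside BATF2 the mark moved the other way. The peak at chr11:64986821-64992557 starts 4.4 kb along the gene from the start named in the table and holds the start of the RefSeq window shown above. Its scores were 85 and 74 in IRF1-guide clones with hIFNb, against 120 and 138 UT, and 90 and 64 in control clones with hIFNb, against 162 and 114 UT. The libraries with hIFNb lay below all UT libraries. The score fell to 0.590-fold (log2 -0.76 ± 0.18, limma, adjusted p = 0.0287, and 1.43e-05 with the clone as a block). Without the mean-variance trend the adjusted p was 0.0659. The call was lost without control clone 4 with hIFNb, without control clone 1 UT or without any 1 of the 4 IRF1-guide libraries (adjusted p = 0.0603 to 0.109). The third peak of the locus (chr11:64966475-64977470, holding the named start of MAJIN) lies 19.5 kb along and scored 82 and 44 in IRF1-guide clones with hIFNb, against 54 and 67 UT, and 96 and 131 in control clones with hIFNb, against 48 and 92 UT. Its change over all clones was 0.37 ± 0.26 (adjusted p = 0.406), and it passed only in control clones with the clone as a block (0.75 ± 0.23, adjusted p = 0.0161).

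The map of the ATF3 and BATF2 loci sets these peaks side by side. Per kb of peak the BATF2 promoter averaged 36.4 with hIFNb and 22.4 UT over all clones, and the peak inside the gene 13.6 with hIFNb and 23.3 UT. By the pattern over the 8 libraries, the promoter peaks most like that of BATF2 among 9902 compared were those of IRF7 (Pearson r = 0.990), an interferon regulatory factor gene, NADK (0.988), an NAD kinase gene, and NAPA (0.987), a gene of vesicle fusion. These correlations describe 8 libraries that share clones and treatment, and carry no test.

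**Figure D2:**
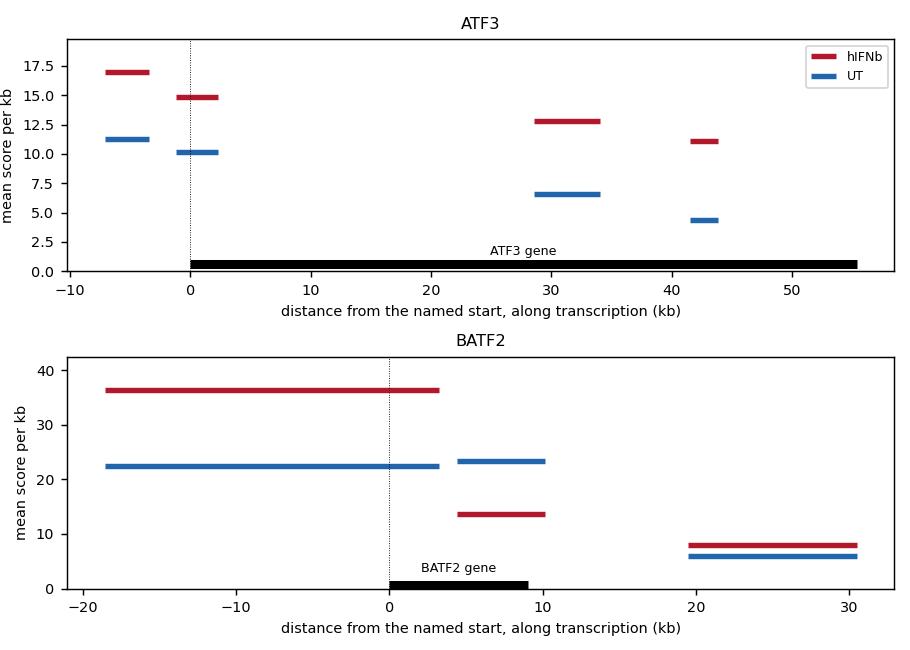
Mean score per kb of each peak at ATF3 and BATF2 with hIFNb and UT over the 4 clones, against the distance in kb from the named start along transcription, with the gene as a black bar. All 4 peaks of ATF3 have a higher mean with hIFNb than UT, while at BATF2 the promoter peak lies at 36.4 score per kb with hIFNb and 22.4 UT and the peak inside the gene at 13.6 with hIFNb and 23.3 UT. By genotype, the mean score of the ATF3 promoter peak was 33.5 with hIFNb and 36.5 UT in IRF1-guide clones, against 70.0 and 34.5 in control clones.

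BATF3, which encodes a JUN partner needed for a class of dendritic cells in mice, had its nearest peak 20.4 kb upstream of the start (chr1:212720260-212724386). The scores were 68 and 50 in IRF1-guide clones with hIFNb, against 26 and 31 UT, and 47 and 60 in control clones with hIFNb, against 30 and 30 UT. No UT library reached the lowest library with hIFNb. The rise was 1.88-fold (log2 0.91 ± 0.20, limma, adjusted p = 0.0214, and 0.00033 with the clone as a block). It was 1.01 ± 0.29 in IRF1-guide clones and 0.80 ± 0.29 in control clones, with adjusted p of 0.167 and 0.153 in the group-means model and 0.0086 and 0.0228 with the clone as a block. Without control clone 4 with hIFNb, control clone 1 or 4 UT, or IRF1-guide clone 11 with hIFNb or UT, the adjusted p over all clones was 0.0611 to 0.087. A link over this distance does not show that the peak acts on BATF3.

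ATF3, a stress-induced member of the ATF and CREB group whose protein pairs with JUN, had 4 peaks. The peak 28.6 kb into the gene (chr1:212594001-212599408) scored 46 and 32 in IRF1-guide clones with hIFNb, against 22 and 27 UT, and 86 and 112 in control clones with hIFNb, against 36 and 57 UT. Each clone was higher with hIFNb, and the lowest IRF1-guide library with hIFNb lay below both control UT libraries. The rise over all clones was 1.82-fold (log2 0.87 ± 0.23, limma, adjusted p = 0.0413, and 0.000359 with the clone as a block). Without the mean-variance trend the adjusted p was 0.0658. Leaving out either control library with hIFNb, control clone 1 UT, IRF1-guide clone 11 with hIFNb or either IRF1-guide UT library ended the call (adjusted p = 0.0651 to 0.137). The log2 change was 0.63 ± 0.32 in IRF1-guide clones and 1.10 ± 0.32 in control clones (limma, adjusted p = 0.444 and 0.0867; clone block 0.0875 and 0.00156, which passes in control clones), and their difference was -0.46 ± 0.46 (unadjusted p = 0.332).

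The peak 41.5 kb into ATF3 (chr1:212606941-212609237) had low scores of 22 and 17 in IRF1-guide clones with hIFNb, against 6 and 16 UT, and of 31 and 32 in control clones with hIFNb, against 6 and 12 UT. The groups did not overlap, with the lowest library with hIFNb 1 score unit above the highest UT library. The change was 2.52-fold (log2 1.33 ± 0.35, limma, adjusted p = 0.0402, and 0.00109 with the clone as a block). The call was lost without the mean-variance trend (adjusted p = 0.056) and without any library but control clone 4 UT or IRF1-guide clone 13 UT (0.0706 to 0.126), and the peak was left out by the alternative that kept mean scores of 20 or more. The log2 change was 0.90 ± 0.49 in IRF1-guide clones and 1.77 ± 0.49 in control clones (limma, adjusted p = 0.48 and 0.0736; clone block 0.164 and 0.00278). In control clones it also passed with a pseudocount of 8 (adjusted p = 0.0383) and without IRF1-guide clone 11 or 13 UT (0.0438 and 0.0491). The difference between the responses was -0.87 ± 0.70 (unadjusted p = 0.24).

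Upstream of ATF3, the peak 3.5 kb from the start (chr1:212558299-212561946) scored 55 and 55 in IRF1-guide clones with hIFNb, against 43 and 48 UT, and 50 and 88 in control clones with hIFNb, against 34 and 40 UT. Its libraries with hIFNb all lay above its UT libraries, yet it passed only with the clone as a block (log2 0.55, adjusted p = 0.0108, against 0.139 in the group-means model).

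At the ATF3 promoter the IRF1-guide clones moved in opposite directions. The peak (chr1:212564218-212567706), which holds the window printed above, scored 36 and 31 in IRF1-guide clones with hIFNb, against 30 and 43 UT, and 55 and 85 in control clones with hIFNb, against 32 and 37 UT. Both control libraries with hIFNb lay above all other libraries. The change was -0.10 ± 0.31 in IRF1-guide clones (limma, adjusted p = 0.917) and 0.97 ± 0.31 in control clones (adjusted p = 0.117, and 0.00635 with the clone as a block). By clone it was 0.26 in IRF1-guide clone 11 and -0.46 in clone 13, against 0.76 in control clone 1 and 1.18 in clone 4. The difference between the responses was -1.07 ± 0.45 on the log2 scale, with an unadjusted p of 0.0357 and an adjusted p of 1 over all peaks in limma's group-means model. A clone block gave an unadjusted p of 0.0067 and an adjusted p of 0.196, so that it passed in neither.

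**Figure D3:**
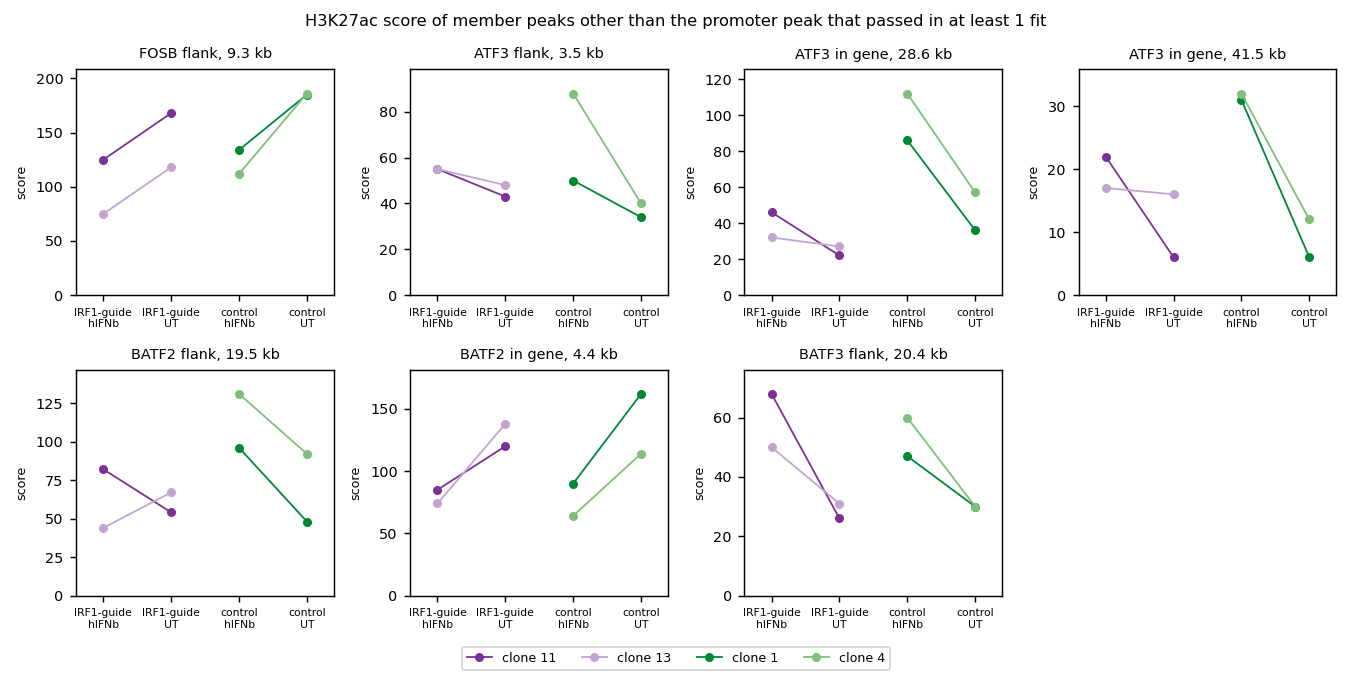
Scores of the 7 member peaks, other than those called promoter peaks here, that passed in at least 1 fit, by group, with lines joining the 2 libraries of a clone. The peak inside BATF2 lies lower with hIFNb than UT in all 4 clones, the BATF3 peak and the 3 ATF3 peaks lie higher in all 4, and the BATF2 peak 19.5 kb away lies higher in 3.

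Among the JUN genes, which encode partners found in most AP-1 dimers, no promoter passed in the group-means model. JUND, a broadly expressed member, had scores of 232 and 249 in IRF1-guide clones with hIFNb, against 172 and 178 UT, and of 227 and 208 in control clones with hIFNb, against 187 and 187 UT (chr19:18272292-18285734, also overlapping IQCN). All libraries with hIFNb lay above all UT libraries. The change was 1.26-fold (log2 0.34, limma, adjusted p = 0.116), and it passed only with the clone as a block (SE 0.09, adjusted p = 0.00445). The promoter peaks with the pattern most like it over the 8 libraries were those of TBCC, a tubulin-folding cofactor gene (r = 0.968), CCDC9 (0.968) and MCMBP, a gene of the replication helicase (0.967).

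JUNB, an immediate-early gene whose protein can restrain JUN, had scores of 346 and 277 in IRF1-guide clones with hIFNb, against 283 and 227 UT, and of 474 and 393 in control clones with hIFNb, against 375 and 348 UT. The peak (chr19:12781349-12796478) also overlaps HOOK2. Each clone was higher with hIFNb, while the groups overlapped because the IRF1-guide libraries were low throughout. The change over all clones was 1.21-fold (log2 0.27, adjusted p = 0.24 in the group-means model of limma, and 0.00619 with the clone as a block). JUN, the founding member, scored 230 and 231 in IRF1-guide clones with hIFNb, against 225 and 220 UT, and 174 and 246 in control clones with hIFNb, against 192 and 230 UT (chr1:58780119-58787865, where the table names LINC01135). Its change of 0.01 ± 0.15 did not pass (adjusted p = 0.963). None of the 4 peaks flanking JUN or JUNB passed in either fit, and the largest change among them was 0.75 ± 0.34 at a peak of low score 13.3 kb from the JUN start (adjusted p = 0.193).

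The FOS genes encode the partners that cannot pair with themselves, and no promoter among them passed in either fit. FOS, the classical immediate-early gene, scored 45 and 42 in IRF1-guide clones with hIFNb, against 35 and 70 UT, and 55 and 31 in control clones with hIFNb, against 62 and 50 UT (chr14:75276437-75279496). The groups overlapped, and the change was -0.30 ± 0.27 (limma, adjusted p = 0.507). At 12.2 to 38.4 kb from the FOS start the 3 further peaks changed by -0.15 to 0.03 over all clones, without passing.

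FOSL1 scored 2236 and 1926 in IRF1-guide clones with hIFNb, against 2099 and 1777 UT, and 2646 and 1978 in control clones with hIFNb, against 2321 and 1949 UT. Each clone was higher with hIFNb, by less than the spread between clones (0.10 ± 0.12, limma, adjusted p = 0.624). FOSL2, whose promoter peak (chr2:28377198-28401781) holds the AP-1 site shown above, scored 373 and 346 in IRF1-guide clones with hIFNb, against 373 and 304 UT, and 341 and 357 in control clones with hIFNb, against 325 and 374 UT. That change was 0.05 ± 0.12 (adjusted p = 0.843), and the 2 peaks further inside FOSL2 changed by -0.13 and 0.27 without passing.

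FOSB, an immediate-early gene with short and long protein forms, was flanked by 2 peaks. The one 9.3 kb before the start (chr19:45448076-45458708) holds the named start of the DNA repair gene ERCC1, so that it is not shown to act on FOSB. It scored 125 and 75 in IRF1-guide clones with hIFNb, against 168 and 118 UT, and 134 and 112 in control clones with hIFNb, against 185 and 186 UT. Each clone was lower with hIFNb, though the groups overlapped. The change was 0.676-fold (log2 -0.56 ± 0.19, limma, adjusted p = 0.0988), and it passed with the clone as a block (adjusted p = 0.000162). The other, 9.1 kb from the start, changed by -0.21 ± 0.22.

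**Figure D4:**
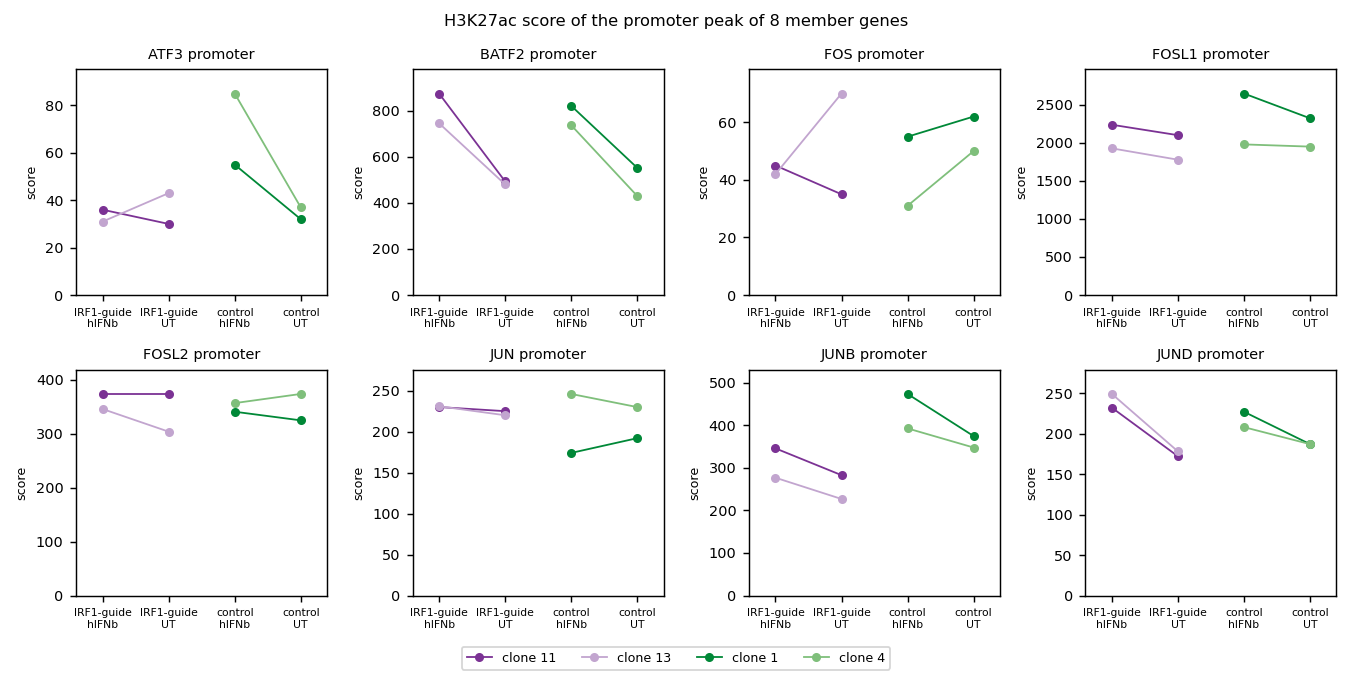
Scores of the promoter peak of 8 genes by group, with lines joining the 2 libraries of a clone, clones 11 and 13 carrying the IRF1 guide. BATF2 lies at 737 to 874 with hIFNb and 430 to 552 UT, ATF3 is above 50 only in control clones with hIFNb, and JUNB is at most 346 in IRF1-guide clones and at least 348 in control clones.

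Taken by genotype, the response to hIFNb passed in the group-means model at fewer peaks than over all clones, among the members and all 31961 peaks alike. All peaks called were 9.13% over all clones, 1.22% in IRF1-guide clones and 4.74% in control clones. In IRF1-guide clones none of the 25 rose or fell in the group-means model of limma, against 1.2% of all peaks rising and 0.025% falling. Of the 25, 4 had an unadjusted p under 0.05, against 4065 of all 31961 peaks. With the clone as a block 3 rose (the BATF2 and JUND promoters and the BATF3 peak) and 2 fell (the peak inside BATF2 and the FOSB peak at ERCC1), against 7.44% of all peaks rising and 6.64% falling. In control clones 1 rose, the BATF2 promoter, and none fell, against 4.07% rising and 0.676% falling. Here 7 had an unadjusted p under 0.05, against 6262 of all 31961 peaks. With the block 7 rose (all 4 ATF3 peaks, 2 at BATF2 and the BATF3 peak) and the same 2 fell, against 13.4% rising and 11.3% falling. The members' median log2 change was 0.10 in IRF1-guide clones and 0.14 in control clones.

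The difference between the responses was tested directly. No member peak passed in limma's group-means model, where 0% of all peaks did. An unadjusted p under 0.05 was found at 1 member peak and at 1258 of all 31961 peaks. With the clone as a block no member passed either, against 0.763% of all peaks, and 3 had an unadjusted p under 0.05, against 3919 of all peaks. A peak that passed in control clones only is therefore not shown to respond differently in IRF1-guide clones.

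**Figure D5:**
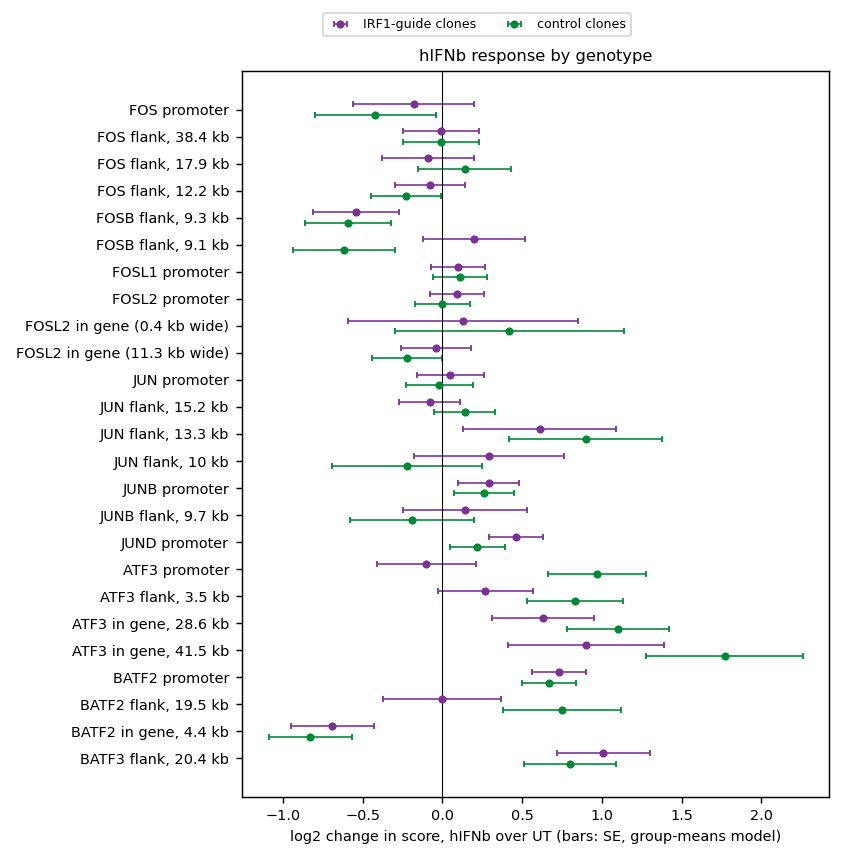
Log2 change in score, hIFNb over UT, in IRF1-guide clones and in control clones for the 25 member peaks, with bars of 1 SE from the group-means model of limma. The pairs lie close at the BATF2 promoter (0.73 in IRF1-guide clones and 0.67 in control clones) and apart at the ATF3 promoter (-0.10 and 0.97 in the same order), the ATF3 peak 41.5 kb in (0.90 and 1.77), the BATF2 peak 19.5 kb away (0.00 and 0.75) and the FOSB peak 9.1 kb away (0.20 and -0.62).

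IRF1-guide clones were also compared with control clones at each treatment. No member peak passed in UT libraries, where 0% of all peaks did, with hIFNb, where 2.43% of all peaks did, or over both treatments on clone means, where 0.516% did (limma). Member peaks with an unadjusted p under 0.05 numbered 2 in UT libraries, 4 with hIFNb and 2 over both treatments. Over all 31961 peaks the counts were 3851, 5200 and 4689 in the same order. The lowest p values belonged to the peak 28.6 kb into ATF3, which averaged 39.0 ± 9.9 in IRF1-guide clones and 99.0 ± 18.4 in control clones with hIFNb (SD, n = 2 each, log2 -1.33 ± 0.32, limma, adjusted p = 0.0616). In UT libraries it averaged 24.5 ± 3.5 in IRF1-guide clones and 46.5 ± 14.8 in control clones (log2 -0.87 ± 0.32, limma, adjusted p = 0.33). That peak passed with hIFNb under a pseudocount of 8 (log2 -1.19, limma, adjusted p = 0.038). Over both treatments it passed in the group-means model (log2 -1.10, adjusted p = 0.0216), though not on clone means (0.111). The group-means fit over both treatments counts every clone 2 times, with hIFNb and UT. Deviations within a clone correlated at 0.392 for IRF1-guide clones and 0.437 for control clones. Its adjusted p therefore overstates the number of separate clones and does not show a difference between genotypes.

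The ATF3 promoter averaged 33.5 ± 3.5 in IRF1-guide clones and 70.0 ± 21.2 in control clones with hIFNb, a difference of -1.01 ± 0.31 that did not pass (limma, adjusted p = 0.135), and it averaged 36.5 ± 9.2 in IRF1-guide clones and 34.5 ± 3.5 in control clones UT. JUNB was lower in IRF1-guide clones in every library, at 227 to 346 in IRF1-guide clones and 348 to 474 in control clones. The difference was -0.48 ± 0.19 with hIFNb and -0.51 ± 0.19 UT, and -0.49 ± 0.19 over both treatments on clone means (limma, adjusted p = 0.25, 0.338 and 0.282), so that none passed.

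Other genes of the pathway passed at 2.99% to 10.5% of their peaks per list with hIFNb over all clones, against 9.13% of all peaks. Among 67 peaks of other bZIP genes, which encode the relatives that share partners with AP-1, 2 rose and none fell with hIFNb over all clones (limma), with a median of 0.06. These were linked to NFIL3, a repressor gene of the circadian clock and of immune cells (0.96 ± 0.19, adjusted p = 0.0108), and ATF7 (1.15 ± 0.26, adjusted p = 0.0229). Among 95 peaks of the MAPK kinases and serum response factors, 9 rose and 1 fell, with a median of 0.04. The largest changes lay away from starts, at MAP2K1, which encodes the ERK kinase MEK1 (1.47 ± 0.34, adjusted p = 0.0244), at RPS6KA5, which encodes a kinase of histone H3 (1.05 ± 0.23, adjusted p = 0.0218), at MAP2K2 (1.02 ± 0.25, adjusted p = 0.0313) and, as the fall, at the stress kinase gene MAP3K20 (-0.69 ± 0.16, adjusted p = 0.025).

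Of 49 peaks of further immediate-early genes 2 rose and 1 fell, with a median of 0.12. The promoter of GADD45B, a stress response gene, rose by 0.60 ± 0.15 (limma, adjusted p = 0.0312), a peak of the zinc-finger gene KLF6 rose by 0.56 ± 0.12 (adjusted p = 0.0172), and a peak of the matrix protein gene CCN1 fell by 0.48 ± 0.13 on the log2 scale (adjusted p = 0.0469). Of 43 peaks of the MAPK phosphatases and sprouty genes, which restrain the pathway, 2 rose and none fell (median -0.04), led by DUSP14 (0.81 ± 0.15, adjusted p = 0.00852). Known AP-1 targets had 4 rises and 1 fall among 78 peaks (median 0.03). They included rises at a peak linked to the cytokine gene IL6 (1.10 ± 0.21, adjusted p = 0.0106) and at the collagenase promoter of MMP13 (1.01 ± 0.22, adjusted p = 0.018). The fall lay at a peak linked to the protease gene MMP7 (-0.70 ± 0.18, adjusted p = 0.0381). None of the peaks named for KLF6, CCN1, DUSP14, IL6 and MMP7 held the gene's start.

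By genotype, limma called none of the peaks of these 5 lists in IRF1-guide clones, against 1.22% of all peaks. There 2, 9, 7, 4 and 10 of the list peaks had an unadjusted p under 0.05 in the order above, against 4065 of all 31961 peaks. In control clones 2 peaks of other bZIP genes, 6 of the kinases and serum response factors, 1 of immediate-early genes and 1 of AP-1 targets rose, and none fell, while of the phosphatases and sprouty genes none was called and 9 had an unadjusted p under 0.05. The rises included peaks linked to ATF6 (1.68 ± 0.34, adjusted p = 0.0214) and MAP3K1, a kinase gene upstream of JNK (1.30 ± 0.28, adjusted p = 0.0262). Neither of these peaks held the gene's start. All peaks rose at 4.07% and fell at 0.676% in that comparison, and 6262 of all 31961 had an unadjusted p under 0.05. With the clone as a block, where 16.6% of all peaks rose and 15.9% fell, the counts over all clones were 11 rises and 4 falls for other bZIP genes, 21 and 11 for the kinases and serum response factors, 9 and 8 for immediate-early genes, 5 and 9 for phosphatases and sprouty genes and 22 and 11 for AP-1 targets. The group-means model over all clones called 9.13% of all peaks. In that model interferon-stimulated control loci had 13 rises and 1 fall among 15 peaks (median 1.34). They included the promoters of the antiviral genes RSAD2 (3.52 ± 0.20, adjusted p = 2.59e-05) and MX1 (2.81 ± 0.17, adjusted p = 2.77e-05). Housekeeping loci had no call among 11 peaks, and 1 rise and 1 fall with the block. Of these 11, 1 had an unadjusted p under 0.05 in the group-means model, against 8224 of all 31961 peaks. In the group-means model epithelial and ductal markers had 1 fall among 31 peaks, at a SOX9 peak (-0.90 ± 0.23, limma, adjusted p = 0.0397). Markers of other cell types had 1 rise among 26, at a COL1A1 peak (2.16 ± 0.39, adjusted p = 0.00741). Neither peak held the gene's start. With the clone as a block 5 epithelial and ductal peaks rose and 7 fell, and 5 peaks of other cell types rose and 5 fell. All peaks rose at 16.6% and fell at 15.9% in that fit. The COL1A1 peak averaged 28.0 ± 1.4 in IRF1-guide clones with hIFNb and 14.5 ± 6.4 in the same clones UT, against 173.5 ± 91.2 in control clones with hIFNb and 17.5 ± 13.4 in control clones UT (SD, n = 2 each), and its part in the ATF3 values was not tested.

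Between genotypes with hIFNb, limma called 1 of 67 peaks of other bZIP genes (1.49%), 3 of 95 of the kinases and serum response factors (3.16%), 2 of 78 of AP-1 targets (2.56%) and none of 49 and 43 in the immediate-early and the phosphatase and sprouty lists (4 and 5 with an unadjusted p under 0.05). The share called over all peaks was 2.43%, so these shares lie near it. An unadjusted p under 0.05 was found at 5200 of all 31961 peaks. The peaks named by the rule were lower in IRF1-guide clones at RPS6KA5 (-1.76 ± 0.21, limma, adjusted p = 0.00665), MAP2K2 (-1.92 ± 0.38, adjusted p = 0.0295), ATF6, an unfolded-protein sensor gene (-1.81 ± 0.34, adjusted p = 0.0245), ELK4, a partner gene of serum response factor (-1.10 ± 0.22, adjusted p = 0.0309), and ITGA2, an integrin gene (-1.11 ± 0.24, adjusted p = 0.0437). None of these peaks held the gene's start.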

How the data were processed

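H3K27ac was mapped in 8 libraries of 4 clones. The submitters' processing notes name Bowtie2 and the GRCh38 (hg38) build. Not given in the sources used here: Bowtie2's version, peak caller, merging, counter and scaling. The deposited score of a peak is a count that the authors normalised and rounded to whole numbers. The reads behind a score are unknown here, so that no counting interval is given. No value column was left unmapped.

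Scores were tested as log2(score + 1) in a model of group means over the 8 libraries (limma 3.58.1 in R 4.3.3, moderated by empirical Bayes along a mean-variance trend), with Benjamini-Hochberg adjustment over all 31961 peaks. For genotype over both treatments the clone means were tested. The replicates are clones, so p-values of the group-means and clone-means fits measure the spread in level between clones. The clone block removes the level of each clone, so its p-values measure only how far the hIFNb response differs between clones. The 2 libraries of a clone are paired by the labels' clone names, and their deviations from the group means correlated at 0.392 for IRF1-guide clones and 0.437 for control clones. The clone as a block was an alternative. The control UT and hIFNb libraries serve several comparisons, which are not independent. The fit was tested on simulated data with independent noise in each library. Those data lack the correlation within a clone, so that test cannot show how the fits handle it.

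The members, lists and tests were chosen with earlier results of these data known. Every member peak that passed in any fit and each promoter peak is named, with, per list, up to 3 rises and 3 falls of largest change, 1 per gene, though some genes that this takes are left out here. Genes came from the deposited table and RefSeq (GRCh38.p14). Alternatives changed the pseudocount, filter, scaling, trend, libraries and block.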

Additional observations from a re-analysis of the deposited data

How the results depend on the processing

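Over 39 results and 586 alternatives, 516 kept direction and side of the threshold, 39 lost a call, 22 gained one and 9 reversed. The count of member peaks called over all clones was 5, against 2 without the mean-variance trend, 9 with the replicate block and 1 to 4 with 1 library left out, while the share of all peaks called was 9.13%, 6.78%, 32.4% and 4.46% to 6.6%. In control clones it was 1, against 0 with a pseudocount of 0.5, a mean-score filter of 20, median-of-ratios scaling, no trend or only the 2 groups compared, 2 with a pseudocount of 8, 9 with the replicate block and 0 to 1 with 1 library left out, where the BATF2 promoter was lost each time and the 1 was the ATF3 peak 41.5 kb in. All peaks called there were 4.74%, 2.87% to 6.55% without a block, 24.6% with it and 0.645% to 4.66% with 1 library left out. In IRF1-guide clones it was 0, against 5 with the replicate block (1.22% and 14.1% of all peaks). Between genotypes with hIFNb it was 0, against 1 with a pseudocount of 8 (2.43% and 4.24% of all peaks). Over both treatments it was 0, against 1 in the group-means model (0.516% and 6.11%), which counts every clone 2 times. The cause of these shifts was not tested. Reversals came only with 1 library left out: the log2 change over all clones then ran from -0.0005 to 0.21 at the FOSL1 promoter, -0.03 to 0.12 at the FOSL2 promoter and -0.11 to 0.14 at the JUN promoter. At the ATF3 promoter it ran from -0.35 to 0.15 in IRF1-guide clones and from -0.19 to 0.31 between genotypes UT. None of these passed the test. With 2 clones a group, a change that misses the threshold is not shown to be absent.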
